A study of Mus musculus with 14 samples.

Results

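The expression difference between cortistatin-deficient (Cort-/-) and wild-type (Cort+/+) mice was examined over both brain hemispheres after stroke, that is, the part of the genotype difference present in contralateral (CL, uninjured) and ischemic (MCAO) tissue alike. All 14 libraries of the series entered the comparison. They comprise 8 Cort-/- libraries (3 CL and 5 MCAO) and 6 Cort+/+ libraries (3 CL and 3 MCAO, the latter numbered 2, 3 and 4). Of the 46904 genes in the deposited table, 17476 had a mean of at least 0.5 RPKM (reads per kilobase of gene, scaled to library size) over all libraries and were tested. The mice were males of 12 weeks on a C57BL/6J background, subjected to 20 min of middle cerebral artery occlusion and sampled 48 h later. Both groups thus share the operation, and the CL hemispheres come from operated animals. The Cort-/- line is constitutive, so the gene is missing in every tissue from conception. The replicates of a group are independent per the methods, while the sources used here do not say if a CL and an MCAO library come from the same mouse. If some do, the p-values over 14 libraries are too small.

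Cortistatin is a secreted neuropeptide made mainly by a subset of GABAergic interneurons of cortex and hippocampus. It is processed from the C-terminal end of a precursor and closely resembles somatostatin, with which it shares the somatostatin receptors, while it also binds the ghrelin receptor. It is known for dampening neuronal activity, for promoting slow-wave sleep and for anti-inflammatory actions on immune cells. Cort lies on the minus strand of chromosome 4 of GRCm39 (chr4:149209491-149211266), and its coding sequence of 330 bases is split over 2 exons. The coding parts are shown from GENCODE M39, because Cort is the gene that defines the genotypes and because Sst, the related gene, has its own reads. In both genes the capitals mark the last 14 codons before the stop, which encode cortistatin-14 and somatostatin-14.
Cort coding exon 1 (chr4:149210984-149211103, minus strand): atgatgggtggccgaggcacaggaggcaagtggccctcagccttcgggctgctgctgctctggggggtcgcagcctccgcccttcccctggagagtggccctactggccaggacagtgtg
Cort coding exon 2 (chr4:149209721-149209930, minus strand): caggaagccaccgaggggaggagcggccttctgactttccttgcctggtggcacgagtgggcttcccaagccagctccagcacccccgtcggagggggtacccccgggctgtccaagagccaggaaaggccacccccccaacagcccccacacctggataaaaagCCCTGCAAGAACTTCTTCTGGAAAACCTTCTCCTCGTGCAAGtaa
Sst coding exon 2 (chr16:23708479-23708691, minus strand): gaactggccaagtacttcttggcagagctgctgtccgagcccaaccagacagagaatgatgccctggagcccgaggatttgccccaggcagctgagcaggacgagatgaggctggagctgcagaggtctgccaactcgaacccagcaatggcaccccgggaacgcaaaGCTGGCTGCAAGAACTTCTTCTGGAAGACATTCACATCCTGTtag
With the peptide codons shifted by 1 codon, 31 of 39 bases were identical between the genes (79.5%). No window of 100 bases, the read length, of the Cort transcript occurred in a transcript of another gene.

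Library depth, in reads recovered from the RPKM values, was between 25989673 and 43032291. The mitochondrial share of reads was 3.15 to 4.48% in Cort-/- and 3.92 to 5.89% in Cort+/+ libraries, and its part in the results was not tested. As a group, ischemic tissue was recognisable by its expression, since 2574 genes (14.7%) differed between MCAO and CL hemispheres over both genotypes. Among them was Gfap, an astrocyte intermediate filament (log2 difference 1.85, limma adjusted p = 0.00192). Single libraries overlapped in Gfap. It was at 132 RPKM in Cort+/+ CL replicate 1 and at 109.9 RPKM in Cort-/- CL replicate 2. The other CL libraries lay between 37.9 and 55.4 RPKM, and Cort+/+ MCAO replicate 4 was at 119.8 RPKM. One library went partly against its genotype near Cort. Cort+/+ MCAO replicate 3 expressed Cort but lay part of the way toward Cort-/- mice in the neighbouring genes, and differences near Cort are given with and without it.

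Cort itself checks the genotype labels. In the Cort-/- CL libraries it had 0, 0.0444 and 0 RPKM, and in the Cort-/- MCAO libraries 0, 0.136, 0.0559, 0 and 0.0385 RPKM. Cort+/+ libraries held 2.61, 5.68 and 5.5 RPKM in CL and 4.44, 3.36 and 3.86 RPKM in MCAO hemispheres. The groups did not overlap, and the 8 Cort-/- libraries carried 7 reads of Cort in all, against 618 in the 6 Cort+/+ libraries. Per unit of library size, Cort+/+ reads were 120.0 times as many (exact 95% interval 57.9 to 299.8, counting error only). Means were 0.0344 ± 0.0473 RPKM (SD, n = 8) and 4.24 ± 1.21 RPKM (SD, n = 6), and the difference on the scale of log2(RPKM + 0.1) was -5.04 (SE 0.24, limma adjusted p = 9.18e-08). The table holds 1 value per gene, so which part of Cort the remaining reads cover was not analysed here.

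In an additive model of genotype and hemisphere, 17 of 17476 genes (0.0973%) passed a Benjamini-Hochberg adjusted p of 0.05, with 11 higher (0.0629%) and 6 lower (0.0343%) in Cort-/- mice. At an unadjusted p under 0.05, 728 genes (4.17%) passed, 357 higher (2.04%) and 371 lower (2.12%). Apart from Cort, 10 of the other 16 genes lay within 10 Mb of Cort on chromosome 4, and 6 lay on chromosomes 11, 14, 18 and X. The 8 Cort-/- libraries did not overlap with the 6 Cort+/+ libraries in 15 of the 17 genes, as did 24 of all genes tested (0.137%). Of these 15, 9 lay above and 6 below the Cort+/+ range, as 0.0801% and 0.0572% of all genes did. An exact two-sided permutation test of genotype within hemispheres gave 8.93e-04, the smallest p that this design allows, for 15 of the 17 genes, as it did for 34 of all genes (0.195%). The test used the same libraries that chose the 17 genes and is no independent support. It gave an exact p of 0.00268 for Dhrs3 and 0.00179 for Pttg1. Differences ranged from 0.29 to 5.04 on the log2 scale without regard to sign, and 13 of the 17 genes had a mean of at least 0.5 RPKM in both genotypes. The other 4 were Cort, Masp2, Angptl7 and ENSMUSG00000138329.

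**Figure D1:**
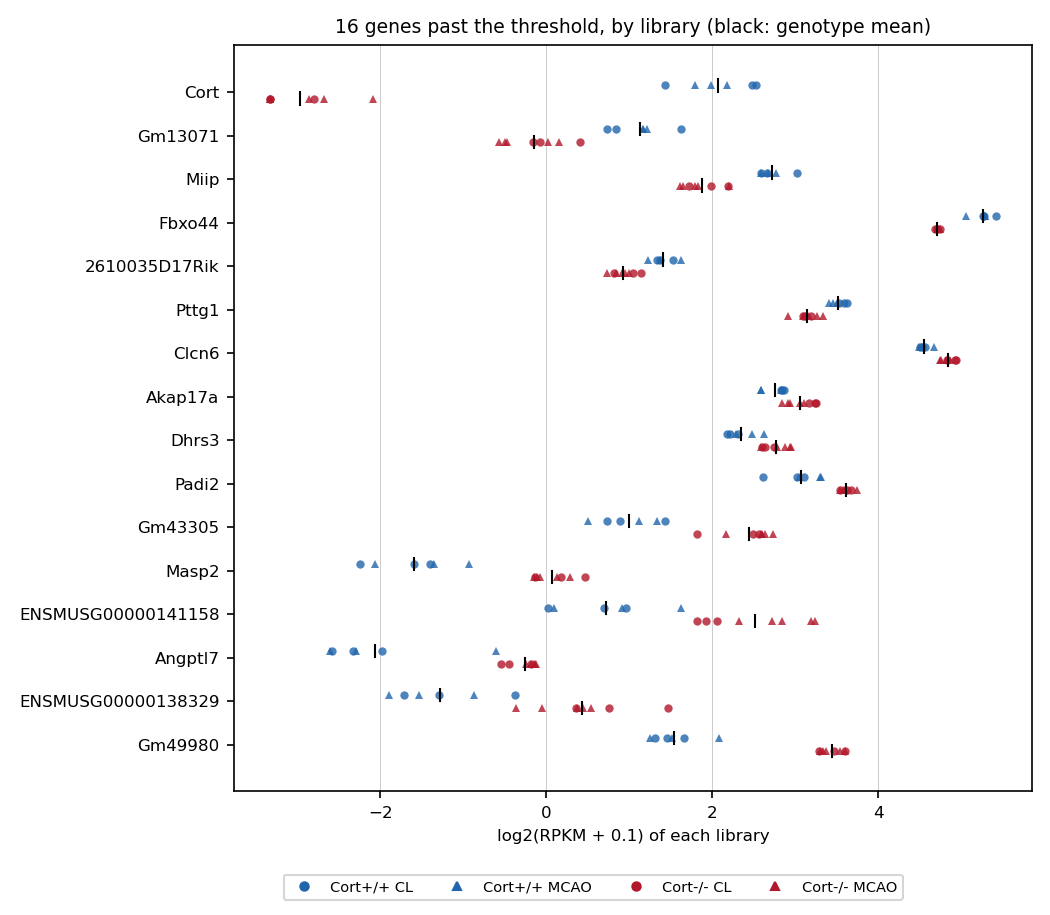
Expression of 16 of the 17 genes past the threshold, as log2(RPKM + 0.1) on the horizontal axis, with 1 point per library (blue Cort+/+, red Cort-/-, circles CL, triangles MCAO) and a black bar at each genotype mean. Cort, at the top, is at or near the lower limit in all 8 Cort-/- libraries, Gm49980, at the bottom, has the largest rise, and Dhrs3 and Akap17a are the genes whose genotypes overlap.

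Among protein-coding neighbours of Cort that were lower in Cort-/- mice, Fbxo44 had the smallest adjusted p. It encodes an F-box protein, the substrate-binding part of a ubiquitin ligase, and lies 0.96 Mb from Cort (chr4:148236949-148245002, minus strand). Its level was 26.0, 25.6 and 26.7 RPKM in Cort-/- CL and 26.8, 26.0, 26.3, 26.0 and 26.3 RPKM in Cort-/- MCAO hemispheres. In Cort+/+ mice it was 42.7, 38.7 and 38.4 RPKM in CL and 38.9, 33.4 and 38.9 RPKM in MCAO hemispheres. The lowest Cort+/+ library, MCAO replicate 3, stood above all Cort-/- libraries, and the log2 difference was -0.54 (SE 0.04, limma adjusted p = 1.49e-05), or -0.59 without that library. Fbxo2, which overlaps Fbxo44 by 410 bases on the opposite strand, had a log2 difference of 0.15 (unadjusted p = 0.0425).

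Miip, which encodes an inhibitor of cell migration and invasion, lies 1.26 Mb from Cort (chr4:147945232-147953273, minus strand). It ranged from 2.96 to 4.50 RPKM (median 3.42) in Cort-/- and from 5.91 to 8.03 RPKM (median 6.27) in Cort+/+ mice. Its log2 difference was -0.83 (SE 0.10, limma adjusted p = 0.00351), with no overlap between genotypes, or -0.85 without MCAO replicate 3.

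Masp2 encodes a serine protease that starts the lectin pathway of complement. It lies 0.51 Mb from Cort (chr4:148686985-148700447, plus strand). Cort-/- libraries held 1.03, 0.81 and 1.28 RPKM in CL and 0.854, 0.826, 1.12, 0.801 and 1.00 RPKM in MCAO hemispheres, and Cort+/+ libraries 0.111, 0.278 and 0.232 RPKM in CL and 0.293, 0.425 and 0.14 RPKM in MCAO hemispheres. All Cort-/- values were above all Cort+/+ values, the highest of which was MCAO replicate 3. The log2 difference was 1.67 (SE 0.20, limma adjusted p = 0.00235), and without that library it was 1.82 (limma adjusted p = 6.78e-04). Of the read-length windows of Masp2, 48% also occur in transcripts of Tardbp, which overlaps it on the opposite strand. Whether counting used strand is not given in the sources used here, and Tardbp, with a mean of 21 RPKM, had a log2 difference of -0.06 (unadjusted p = 0.266).

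Angptl7, a secreted protein of the angiopoietin-like family, lies 0.62 Mb from Cort inside the Mtor gene on the opposite strand (chr4:148579639-148584923, minus strand). It was at 0.632, 0.781 and 0.587 RPKM in Cort-/- CL and at 0.746, 0.779, 0.807, 0.81 and 0.822 RPKM in Cort-/- MCAO hemispheres. Cort+/+ libraries held 0.153, 0.067 and 0.0994 RPKM in CL and 0.0645, 0.556 and 0.105 RPKM in MCAO hemispheres. The Cort+/+ libraries were low except MCAO replicate 3, which came close to the lowest Cort-/- library. The log2 difference was 1.77 (SE 0.25, limma adjusted p = 0.00997), and 2.09 without MCAO replicate 3 (limma adjusted p = 1.74e-05). Mtor, the kinase gene around it, had a log2 difference of 0.03 (95% interval -0.06 to 0.12), and no read-length window of Angptl7 occurred in another gene.

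Smaller rises were measured in Clcn6, Dhrs3 and Padi2. Clcn6, a chloride and proton exchanger of late endosomes, lies 1.09 Mb from Cort, and ranged from 26.8 to 30.7 RPKM (median 28.3) against 22.5 to 25.4 RPKM (median 23). Its log2 difference was 0.29 (SE 0.04, limma adjusted p = 0.00442), the smallest among the 17 genes. The genotypes did not overlap, and the highest Cort+/+ library was again MCAO replicate 3, without which the difference was 0.33.

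Dhrs3, an enzyme that reduces retinal to retinol, lies 4.55 Mb from Cort. It ranged from 5.90 to 7.66 RPKM (median 6.70) in Cort-/- and from 4.45 to 6.09 RPKM (median 4.83) in Cort+/+ mice, and the genotypes overlapped through MCAO replicate 3. Its log2 difference was 0.39 (SE 0.07, limma adjusted p = 0.0445), or 0.43 without MCAO replicate 3 (limma adjusted p = 0.0263), and it passed in 2 of the 14 fits that left out a library. Padi2, which converts arginine to citrulline in proteins such as myelin basic protein, lies 8.53 Mb away, and ranged from 11.6 to 13.3 RPKM (median 11.9) against 6.02 to 9.88 RPKM (median 8.37). Its log2 difference was 0.53 (SE 0.08, limma adjusted p = 0.025), or 0.57 without MCAO replicate 3 (limma adjusted p = 0.0263), and it passed in 8 of those 14 fits. Padi2 is active in oligodendrocytes, and of 13 genes of that lineage 7 had higher and 6 lower values (median 0.01), with Mbp, a myelin gene, at -0.14 (95% interval -0.27 to -0.02) and Olig1, a transcription factor of the lineage, at 0.10 (0.01 to 0.19), both with a limma adjusted p of 0.999.

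The neighbours without a protein product were a pseudogene and a long non-coding RNA. Gm13071, a processed pseudogene within Lzic on the same strand (0.37 Mb from Cort, chr4:149585090-149585465), ranged from 0.573 to 1.23 RPKM in Cort-/- and from 1.57 to 3 RPKM in Cort+/+ mice (log2 difference -1.26, SE 0.17, limma adjusted p = 0.00788). It rests on 9 to 15 reads per Cort-/- and 22 to 39 reads per Cort+/+ library. Lzic had a log2 difference of 0.09 (unadjusted p = 0.136). ENSMUSG00000138329, a long non-coding RNA 0.91 Mb away, ranged from 0.676 to 2.66 RPKM (15 to 58 reads) in Cort-/- and from 0.17 to 0.672 RPKM (4 to 16 reads) in Cort+/+ mice (log2 difference 1.78, SE 0.25, limma adjusted p = 0.00997), or 1.94 without MCAO replicate 3. In both genes the genotypes did not overlap.

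Position was a shared feature of these genes that the comparison did not use. Among 17376 tested genes with a position, 208 (1.2%) lay within 10 Mb of Cort, Cort itself left out. Of the 37 genes within 1 Mb, 6 passed (16.2%), and of the 21 genes from 1 to 2 Mb, 2 passed (9.52%). The shares were 3.12% of 32 genes from 2 to 5 Mb and 0.847% of 118 genes from 5 to 10 Mb. Of the 834 genes of chromosome 4 farther than 10 Mb from Cort none passed, with 29 (3.48%) at an unadjusted p under 0.05 in the limma fit, and on other chromosomes 6 of 16333 genes passed (0.0367%). The neighbours moved both ways, with 7 of the 10 higher and 3 lower in Cort-/- mice. This count depends on the filter, a mean over 8 Cort-/- and 6 Cort+/+ libraries. Masp2, Angptl7 and ENSMUSG00000138329 reached it only through their Cort-/- values. Tnfrsf8 and Zfp982, described below and lower in Cort-/- mice, did not reach it. Toward the centromere 9 of 84 genes passed (10.7%), and toward the telomere 1 of 124 (0.806%). At an unadjusted p under 0.05 the shares were 36.9% and 10.5%, beside 4.17% over all genes. Adjacent genes are no independent observations, and a difference carried by the chromosome around Cort and an effect of missing cortistatin cannot be told apart where they fall on the same genes.

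**Figure D2:**
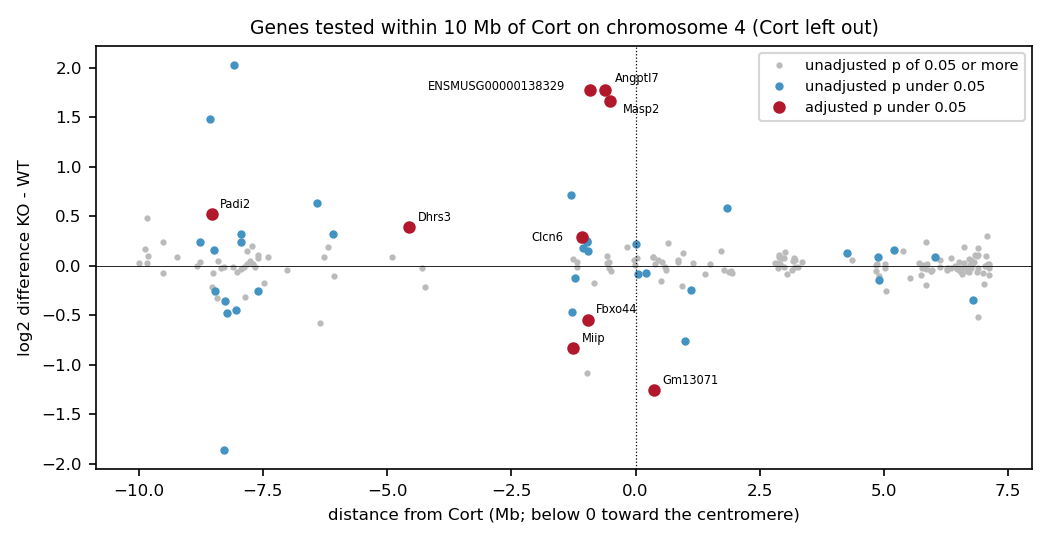
Log2 difference between Cort-/- and Cort+/+ mice (vertical axis) for genes tested within 10 Mb of Cort, by distance in Mb (horizontal axis, below 0 toward the centromere), with Cort and 1 further gene left out. Red points passed the adjusted threshold, blue points an unadjusted p of 0.05, and most red points lie within 2 Mb of Cort on the centromeric side, some above and some below 0.

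Cort+/+ MCAO replicate 3 was set against the other Cort+/+ libraries in 18 neighbours, the 10 that passed and 8 genes of lower expression described next. For each gene, 0% stands for the mean of the other 5 Cort+/+ libraries and 100% for the Cort-/- mean. MCAO replicate 3 was the Cort+/+ library nearest to Cort-/- mice in 15 of the 18 genes, at a median of 41.5% (from -1.81 to 70.8%). The medians of the other Cort+/+ libraries were between -16.1 and 0.28%. Their 0% includes MCAO replicate 3 and so lies nearer to Cort-/- mice in most of these genes, which lowers their values. Over the 7 named genes elsewhere in the genome it was nearest in 1, at a median of 8.27%. Cort+/+ CL replicate 3, which has the same number, was nearest in 1 of the 18 neighbours, at a median of -9.62%. Cort itself was at 3.36 RPKM (93 reads) in MCAO replicate 3, within the range of the other Cort+/+ libraries. Without this library 16 genes passed, 15 of them among the 17, and the differences of the 10 neighbours moved away from 0 in all but Gm13071 (from -1.26 to -1.23). Akap17a and 2610035D17Rik did not pass without it (limma adjusted p = 0.0721 and 0.113).

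**Figure D3:**
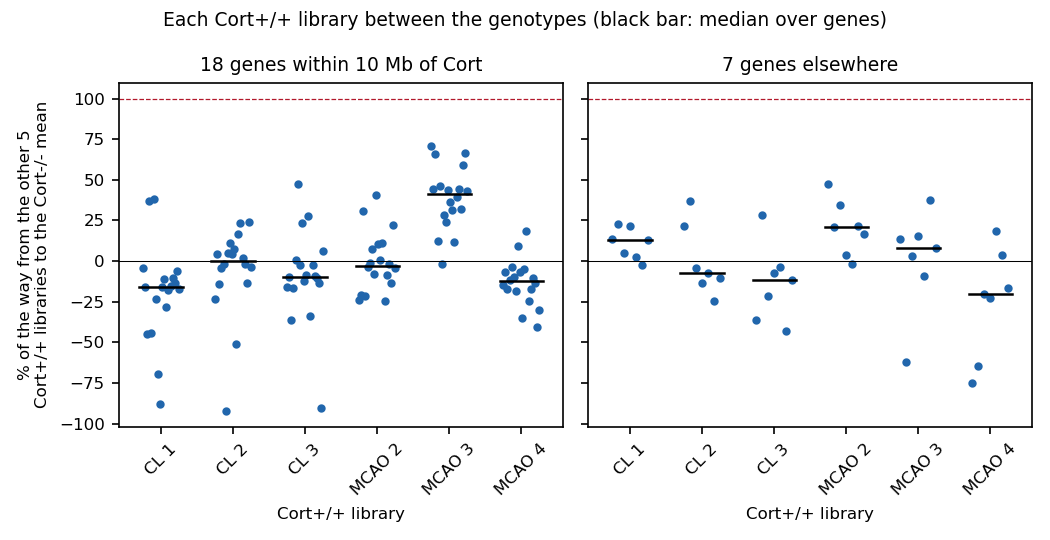
Position of each Cort+/+ library (named along the horizontal axis) in % (vertical axis) between the mean of the other 5 Cort+/+ libraries (0%) and the Cort-/- mean (100%, dashed line), with 1 point per named gene and a bar at the median. In the left panel of 18 genes within 10 Mb of Cort, MCAO replicate 3 has a median of 41.5% while the other medians lie between -16.1 and 0.28%, and in the right panel of 7 genes elsewhere its median is 8.27%. The 0% of the other libraries includes MCAO replicate 3.

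Genes below the mean of 0.5 RPKM were reached by a fit without that filter, in which 29 of 46102 genes passed (0.0629%), 13 of them below the filter. Tnfrsf8, which encodes the lymphocyte receptor CD30 and lies 4.17 Mb from Cort, ranged from 0.402 to 0.70 RPKM (56 to 86 reads) in Cort+/+ and from 0.0135 to 0.0944 RPKM (2 to 14 reads) in Cort-/- mice (log2 difference -2.22, limma adjusted p = 3.79e-05). The antisense RNA Gm57096 at Dhrs3 was lower in Cort-/- mice (-1.20, limma adjusted p = 0.012), and the pseudogenes Gm13230 and Gm13243 were higher (1.63 and 1.80, limma adjusted p = 0.00911 and 0.012). Of the read-length windows of Gm13230, 89.6% occur in Platr16, which passed in the same fit, and 80% of those of Gm13243 occur in 4 other genes, so the source of their reads is uncertain. Without MCAO replicate 3, a fit added after the data were seen, the differences were -2.34 for Tnfrsf8, -1.34 for Gm57096, 1.81 for Gm13230 and 2.04 for Gm13243.

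A cluster of KRAB zinc finger genes lies on distal chromosome 4 at 1.32 to 3.94 Mb from Cort. These proteins bind DNA, often in transposable elements, and recruit silencing factors. Of 16 genes on the list 15 were in the table, and none reached 0.5 RPKM. Zfp982 ranged from 0.412 to 0.777 RPKM in Cort+/+ mice and did not exceed 0.0351 RPKM in Cort-/- mice, where all 8 libraries held 8 reads in all (log2 difference -2.49, limma adjusted p = 3.88e-06). Zfp984 ranged from 0.197 to 0.279 RPKM in Cort-/- and from 0.754 to 1.02 RPKM in Cort+/+ mice (log2 difference -1.52, limma adjusted p = 8.65e-06).

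Other members moved the opposite way. Zfp992 ranged from 0.36 to 0.54 RPKM in Cort-/- and from 0.0497 to 0.226 RPKM in Cort+/+ mice (log2 difference 1.45, limma adjusted p = 0.00434). Zfp990 ranged from 0.209 to 0.425 RPKM in Cort-/- mice (log2 difference 1.89, limma adjusted p = 0.00911). In Cort+/+ mice Zfp990 had 0 reads in 5 libraries, including CL replicate 3, and 28 reads (0.214 RPKM) in MCAO replicate 3. Thus the same library that stood apart above carried all Cort+/+ reads of this gene. Without it the differences were 1.63 for Zfp992, -2.58 for Zfp982 and -1.51 for Zfp984, and Zfp990 had no Cort+/+ read left.

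None of the remaining members passed in the fit without the filter, and most were near the detection limit. Zfp979 had 36 reads over all Cort-/- and 102 over all Cort+/+ libraries, at 0.0177 to 0.0833 and 0.111 to 0.372 RPKM. Zfp991 had 59 and 122 reads, at 0.0371 to 0.0982 and 0.118 to 0.267 RPKM. Zfp981 had 30 and 10 reads. Zfp985 had 21 and 5 reads, Zfp980 8 and 2, Zfp989 7 and 2, and Zfp988 3 and 1. Zfp987 had 2 reads in each genotype, Zfp993 0 and 7, Zfp600 4 and 0, and Rex2 9 and 0. Reads of this family can fall on near-identical copies, since 33.3% of the read-length windows of Zfp984 and 38.8% of those of Zfp992 occur in another gene (3.69% for Zfp990), so levels of single members are uncertain.

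Outside chromosome 4, Gm49980 had the largest difference after Cort. This long non-coding RNA of chromosome 18 was at 11, 12.1 and 9.68 RPKM in Cort-/- CL and at 10.3, 12.1, 10, 11.6 and 9.78 RPKM in Cort-/- MCAO hemispheres. Cort+/+ libraries held 3.06, 2.39 and 2.64 RPKM in CL and 2.76, 2.28 and 4.15 RPKM in MCAO hemispheres. All Cort-/- libraries were more than 5 RPKM above the highest Cort+/+ library, and the log2 difference was 1.89 (SE 0.11, limma adjusted p = 1.21e-06).

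Gm43305, a long non-coding RNA of chromosome 14 (chr14:54529898-54534949, minus strand), ranged from 3.43 to 6.54 RPKM (median 5.88) in Cort-/- and from 1.32 to 2.61 RPKM (median 1.91) in Cort+/+ mice (log2 difference 1.43, SE 0.17, limma adjusted p = 0.00235). ENSMUSG00000141158, a long non-coding RNA antisense to Camk2b on chromosome 11 (chr11:5955987-5961447, plus strand), ranged from 3.42 to 9.34 RPKM (median 5.69) against 0.916 to 3 RPKM (median 1.65). Its log2 difference was 1.71 (SE 0.24, limma adjusted p = 0.00788), while Camk2b, a subunit gene of a calcium-dependent kinase of synapses, had -0.03 (unadjusted p = 0.481). ENSMUSG00000127259, a long non-coding RNA of chromosome 1 below the filter, ranged from 0.408 to 0.689 RPKM in Cort-/- and from 0.0454 to 0.169 RPKM in Cort+/+ mice (log2 difference 1.69, limma adjusted p = 0.0018).

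These 4 RNAs share sequence with each other and with other genes. Windows of read length found in other genes made up 23.6% of Gm49980, 19.3% of Gm43305, 3.73% of ENSMUSG00000141158 and 30% of ENSMUSG00000127259. Gm49980 shared 73 windows with ENSMUSG00000141158 and 49 with ENSMUSG00000127259, and the latter shared 40 with Gm43305. By name, 49 other genes held such a window, a count that may include some of the 4 RNAs under a second name. Of the 49, 11 were tested. None of these passed in the limma fit, 1 had an unadjusted p under 0.05, and their median log2 difference was 0.04 beside 0.00 over all genes. How reads with several matches were counted is not given in the sources used here, so the levels of the 4 RNAs are uncertain to that extent.

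The other genes outside chromosome 4 had smaller differences. Akap17a, an A-kinase anchoring protein of nuclear speckles on chromosome X (chrX:169097632-169105554), ranged from 7.07 to 9.44 RPKM (median 8.40) in Cort-/- and from 5.90 to 7.22 RPKM (median 7.00) in Cort+/+ mice (log2 difference 0.33, SE 0.05, limma adjusted p = 0.0175). Its genotypes overlapped over both hemispheres but not within either, the MCAO minus CL difference over both genotypes was -0.22 (limma adjusted p = 0.012), and it passed in 8 of 14 fits that left out a library. Pttg1, which encodes securin, the inhibitor of separase in mitosis, ranged from 7.46 to 10 RPKM (median 8.74) against 10.5 to 12.3 RPKM (median 11.4), with a log2 difference of -0.37 (SE 0.06, limma adjusted p = 0.025), and passed in 5 of those fits. The non-coding RNA 2610035D17Rik of chromosome 11 ranged from 1.56 to 2.11 RPKM against 2.25 to 2.99 RPKM, with a log2 difference of -0.47 (SE 0.08, limma adjusted p = 0.0376), and passed in 2 of those fits.

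Just outside the threshold, Gm28592, 4930481A15Rik and ENSMUSG00000121573 each had a limma adjusted p of 0.0562, with log2 differences of 0.87, -1.02 and 0.97. ENSMUSG00000121574, named after its values were seen, had the same adjusted p and a difference of 1.11 (means 12.6 and 6.13 RPKM in Cort-/- and Cort+/+ mice). Of the read-length windows of Gm28592, 82.7% lie in Phlda1.

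The same genes were then compared within each hemisphere. All 17 had the same sign in CL and MCAO hemispheres, which 55.1% of all genes did, and the selection on both hemispheres favours this. The libraries did not overlap within CL in 17 genes (6.36% of all genes) and within MCAO in 16 (2.29% of all genes), counts that the selection favours as well. With 3 libraries against 3 in CL and 5 against 3 in MCAO, 4 genes passed in each (0.0229% of all genes), all 4 among the 17 in either hemisphere. At an unadjusted p under 0.05 the shares of all genes were 2.92% in CL and 2.31% in MCAO hemispheres. The test of the difference itself called no gene (0.00%), while 273 (1.56%) had an unadjusted p under 0.05 in the limma fit, none of them among the 17. The interval of the difference between hemispheres held 0 for all 17 genes, and its width sets what can be said of each.

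For Fbxo44 the genotype difference was -0.61 in CL and -0.49 in MCAO hemispheres, and MCAO exceeded CL by 0.12 (95% interval -0.05 to 0.29). Clcn6 differed by 0.37 and 0.24, with -0.13 between them (-0.28 to 0.02). For both of these abundant genes a change of the genotype difference by more than 0.3 between hemispheres lies outside the interval.

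Padi2 differed by 0.70 in CL and 0.38 in MCAO hemispheres, and its interval, -0.65 to 0.00, was the nearest to leaving out 0 (unadjusted p = 0.0507, adjusted over all genes as the others). The intervals of low genes were wide. Masp2 differed by 1.92 and 1.47 (-1.30 to 0.40 for the difference), Angptl7 by 1.90 and 1.67 (-1.38 to 0.91), and ENSMUSG00000141158 by 1.37 and 1.98 (-0.39 to 1.61). For Cort itself, at -5.30 and -4.84, the interval was -0.58 to 1.49.

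**Figure D4:**
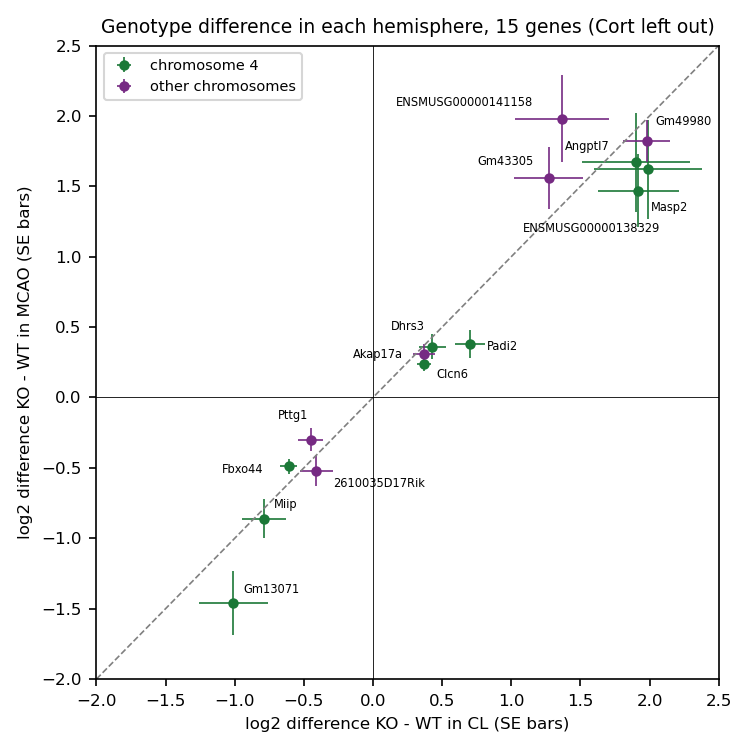
Log2 difference between Cort-/- and Cort+/+ mice in CL (horizontal axis) and MCAO hemispheres (vertical axis) for 15 of the 16 genes past the threshold other than Cort, with standard errors as bars, chromosome 4 in green, other chromosomes in purple and a dashed line of equal differences. All points have the same sign on both axes, and Padi2, at 0.70 and 0.38, lies below the line.

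Genes that act with cortistatin were measured from a list. Sst, which encodes somatostatin, ranged from 136 to 175 RPKM (median 152) in Cort-/- and from 142 to 206 RPKM (median 165) in Cort+/+ mice, a log2 difference of -0.10 (95% interval -0.26 to 0.05). Of the somatostatin receptors, Sstr1 had a difference of -0.01 (-0.17 to 0.15), Sstr2 of 0.09 (-0.11 to 0.28), Sstr3 of 0.04 (-0.09 to 0.16) and Sstr4 of 0.01 (-0.27 to 0.28). None passed, and for Sst, Sstr1, Sstr2 and Sstr3 the intervals leave out a difference of 0.3 in either direction. Sstr5 and Ghsr, the ghrelin receptor, were below the filter, with means of 0.161 and 0.193 RPKM in Cort-/- and 0.153 and 0.167 RPKM in Cort+/+ mice.

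Of 19 tested genes of GABAergic interneurons, the cell class that makes cortistatin, none passed, and 8 were higher and 11 lower in Cort-/- mice (median -0.03, beside 0.00 over all genes). Gad1 and Gad2, the enzymes of GABA synthesis, had differences of -0.03 (-0.14 to 0.08) and -0.10 (-0.21 to 0.02). In the limma fit Pvalb, the marker of fast-spiking cells, had -0.20 (-0.35 to -0.04, unadjusted p = 0.0187), and Tac1, a tachykinin precursor, had -0.22 (unadjusted p = 0.0307). In CL hemispheres Tac1 ranged from 26.4 to 29.2 RPKM in Cort-/- and from 28 to 31.5 RPKM in Cort+/+ mice. In MCAO hemispheres it ranged from 16.6 to 23.9 and from 21.8 to 29.4 RPKM, and which cells its reads come from was not tested. In bulk tissue, fewer cells of a type and less RNA per cell cannot be told apart.

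Over 16 lists, 0 of 218 tested members passed (0.0973% of all genes did). Of these members, 11 had an unadjusted p under 0.05 in the limma fit, as did 728 of all 17476 genes (4.17%). In the interferon list all 27 members had higher values in Cort-/- mice, with a median of 0.29, and none had an unadjusted p under 0.05. Its median was -0.02 in CL and 0.57 in MCAO hemispheres. The libraries varied widely: Isg15, an antiviral ubiquitin-like protein, ranged from 0.835 to 20.2 RPKM in Cort-/- and from 0.864 to 20.8 RPKM in Cort+/+ mice (0.30, -0.83 to 1.43). Ifit1 and Ifit3, which bind viral RNA or its sensors, had differences of 0.31 (-0.67 to 1.29) and 0.44 (-0.38 to 1.26). Within CL hemispheres the sign turned, with -0.34 for Isg15, -0.27 for Ifit1 and -0.02 for Ifit3. There Isg15 was at 1.84 RPKM in Cort+/+ replicate 1 and at 0.864 and 0.915 RPKM in Cort+/+ replicates 2 and 3. For lists of such spread, whose intervals reached a median of 0.80 to either side, a 1.5-fold difference was not detectable.

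Members of the reactive astrocyte list had higher values in 11 of 11 genes (median 0.34, with 0.14 in CL and 0.47 in MCAO hemispheres). Cd44, a hyaluronan receptor, had 0.46 (0.02 to 0.90, unadjusted p = 0.0415), and Gfap had 0.34 (-0.34 to 1.02). Of the microglial list 14 of 17 members had higher values (median 0.16, with 0.03 in CL and 0.18 in MCAO hemispheres). P2ry12 was at -0.05 (-0.29 to 0.19) and Csf1r at 0.16 (-0.04 to 0.35). Of 13 tested cytokine and innate signalling genes 11 had higher values (median 0.23, with 0.07 in CL and 0.24 in MCAO hemispheres). Of 17 extracellular matrix genes 16 had higher values (median 0.16, with 0.07 in CL and 0.25 in MCAO hemispheres). Among these, Col1a1 (0.32, 0.03 to 0.61) and Tnc (0.44, 0.04 to 0.84) had an unadjusted p under 0.05 in the limma fit. Markers of meningeal fibroblasts, which share Col1a1, had higher values in 6 of 6 (median 0.28, 2 with an unadjusted p under 0.05), with sums of 26.6 to 47.4 RPKM in Cort-/- and 25 to 32.2 RPKM in Cort+/+ libraries, and their part was not tested. Glucocorticoid response genes had higher values in 12 of 13 (median 0.12, with 0.13 in CL and 0.10 in MCAO hemispheres). Over all genes, 48.3% had a higher value in Cort-/- mice. Members of such lists rise and fall together across libraries, so these counts are descriptions without a test.

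Striatal spiny neuron genes had lower values in 14 of 15 members (median -0.15, with -0.05 in CL and -0.20 in MCAO hemispheres). Drd1, a dopamine receptor, was at -0.18 (-0.38 to 0.02). Medians of the remaining lists lay between -0.04 and 0.03. Endothelial genes had 10 higher and 10 lower values (median -0.01), with Cldn5, a tight junction protein, at -0.10 (-0.35 to 0.15) and Kdr, a VEGF receptor, at -0.49 (-0.83 to -0.16, unadjusted p = 0.00739, adjusted p = 0.999). Kdr differed by -0.93 in CL and -0.15 in MCAO hemispheres, and Tek, the angiopoietin receptor, by -0.39 and -0.06. In CL hemispheres summed endothelial markers ranged from 25.1 to 28.7 RPKM in Cort-/- and from 32.8 to 34.5 RPKM in Cort+/+ mice, and in MCAO hemispheres from 34.9 to 49.1 and from 36.4 to 38 RPKM; their part was not tested. Pericyte genes had a median of 0.03, homeostatic astrocyte genes -0.04 and oligodendrocyte genes 0.01. Synaptic genes had a median of 0.00, and circadian clock genes, 5 higher and 11 lower, -0.03.

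**Figure D5:**
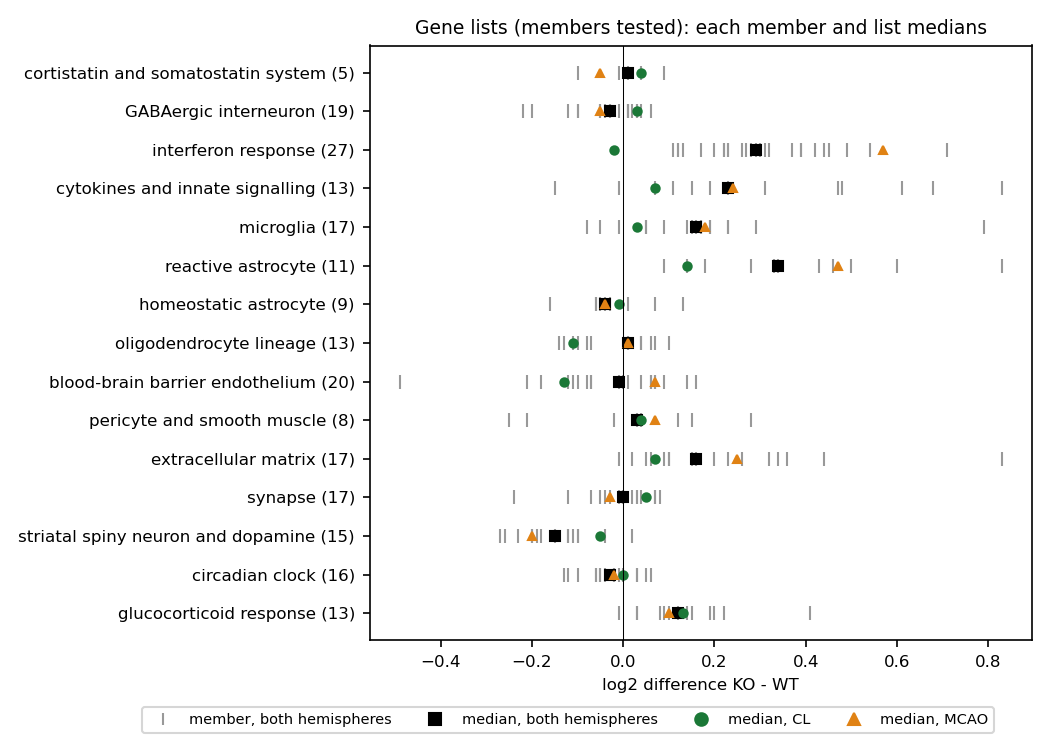
Log2 difference between Cort-/- and Cort+/+ mice (horizontal axis) for each member (grey ticks) of the 15 gene lists with tested members, with list medians over both hemispheres (black squares), in CL (green circles) and in MCAO hemispheres (orange triangles). The interferon list has its median at -0.02 in CL and 0.57 in MCAO hemispheres, while the cortistatin and somatostatin list lies near 0 in both.

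Markers of cell types that the tissue may hold in varying amounts were summed per library. No marker list had a called member, and none held a marker at 0 in all libraries. Summed oligodendrocyte markers ranged from 673 to 845 RPKM in Cort-/- and from 703 to 917 RPKM in Cort+/+ libraries, red blood cell markers from 87.4 to 186 and from 97 to 329.6 RPKM, and neutrophil markers from 3.82 to 15.8 and from 2.39 to 5.22 RPKM. Choroid plexus markers ranged from 408 to 631 and from 383 to 600.2 RPKM, and microglial markers from 85.8 to 247 and from 80.8 to 195 RPKM. Over both hemispheres the genotypes overlapped in each, while within CL neutrophil markers did not (4.51 to 9.66 in Cort-/- and 2.39 to 4.45 RPKM in Cort+/+ libraries). The median log2 difference was 0.84 for neutrophil markers, of which 2 were tested and 5 of 7 had a mean under 0.5 RPKM. For the 5 red blood cell markers, all lower in Cort-/- mice, it was -0.57. The part of tissue composition in the 17 differences was not tested. With the reactive astrocyte level as a further covariate, an alternative added after the data were seen, 16 genes passed, 15 of them among the 17. That level describes 1 cell state and cannot stand for the other cell types.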

How the data were processed

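The libraries were poly(A)-selected, stranded mRNA libraries sequenced as 100 bp paired ends. The authors processed reads with reanalyzerGSE 3.0.0 on GRCm39 (GENCODE M28) and deposited RPKM values per gene and library, without pooling. Per the methods, comparisons kept replicates that grouped clearly where variability was large, so the spread between libraries may be understated. The methods name 5 MCAO replicates, while the series holds 5 MCAO libraries of Cort-/- and 3 of Cort+/+ mice. Why fewer are present in Cort+/+ mice is not given, and its part in the genotype differences was not tested. All 495656 values above 0 (100%) came back as whole reads within a tolerance of 0.02 reads, and 19 library pairs of one group differed by 5.82 to 26.3 times sampling noise, so no library was a copy. Intervals of read ratios and limits from 0 reads cover counting error only.

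Genes averaging 0.5 RPKM or more were fitted as log2(RPKM + 0.1) with limma (genotype plus hemisphere, variance trend), which understates the change of low genes. Hemispheres and their difference came from a model of the 4 groups. Adjustment (Benjamini-Hochberg) was over 17476 genes. Of the table's genes 99.4% matched GENCODE M39. The methods of the study compare the genotypes in each hemisphere; the additive model is the comparison described here. The members and the gene lists were chosen with earlier results of these data known. Named are Cort, the genes that passed except 1 that is not reported here by name or value, up to 4 of the first members of each list, detected KRAB members, up to 10 genes that passed only without the filter, and 3 just outside. Other list members with an unadjusted p under 0.05, Sstr4, Sstr5, Ghsr, and genes overlapping or sharing windows with named genes were named after their values were seen. On simulated counts the additive model recovered 40%, 72%, 88% and 98% of genes changed 1.25-, 1.5-, 2- and 4-fold (50 genes each), with 6 false calls among 17219 unchanged genes. The median standard error was 0.0691. Other pseudocounts, filters, scalings, weights, replicate blocks, single hemispheres, limma voom on recovered reads and leaving out each library were alternatives.

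The versions used were limma 3.58.1 under R 4.3.3. Python 3.11.15 served for the remaining steps, using scipy 1.17.1 and pandas 2.3.3.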

Additional observations from a re-analysis of the deposited data

Results flagged for a closer look

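In the Cort-/- MCAO group of 5 libraries, 4 of 29 genes tested held 1 library that stood apart from the other 4 libraries by Dixon's criterion, which chance meets in about 1 of 20 groups. Gm43305 was at 4.38 RPKM in replicate 2, the others from 5.94 to 6.54 RPKM. Padi2 was at 13.3 RPKM in replicate 3, the others from 11.6 to 12 RPKM. Zfp992 was at 0.54 RPKM in replicate 1, the others from 0.374 to 0.408 RPKM. Zfp982 was at 0 RPKM in replicate 4, the others from 0.0254 to 0.0351 RPKM, where 1 or 2 reads separate the values. Gm43305 and Padi2 lay outside the Cort+/+ range in each of these libraries.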

How the results depend on the processing

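Among 32 alternatives, Cort, Fbxo44 and Gm49980 passed in all, and no difference of the 17 genes or the 3 just outside changed sign in any of them. List members were not refitted under these alternatives, and some differ in sign between CL and both hemispheres, Isg15 (-0.34 and 0.30) and Ifit1 (-0.27 and 0.31) among them. Without the filter on mean RPKM 29 genes passed, 18 higher and 11 lower, and the difference between hemispheres called 1 gene, an alternative added after the data were seen. With CL hemispheres only 4 genes passed (2 higher, 2 lower), and likewise 4 with MCAO hemispheres only (2 higher, 2 lower), where fewer samples entered. Leaving out each library in turn gave 12 to 17 genes (8 to 12 higher, 4 to 5 lower) and 0 for the difference between hemispheres. All 14 of these fits kept 12 of the 17 genes. Dhrs3, 2610035D17Rik, Pttg1, Akap17a and Padi2 did not pass in at least 6 of them. Rescaling to TPM moved the median of all genes to 0.05 and gave 18 genes, 15 of them among the 17, and limma voom on recovered reads gave 17, 16 of them among the 17. The planned count model was not run, because the deposited unit is RPKM.

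The replicate numbers do not show a pairing of hemispheres. Deviations of same-numbered CL and MCAO libraries correlated at -0.06, -0.17 and 0.06 in Cort-/- and at 0.24 and -0.11 in Cort+/+ mice. With the replicate number as a fixed term, which different mice of the 2 genotypes share, 9 genes passed (6 higher, 3 lower), 8 of them among the 17. With same-numbered libraries of a genotype averaged 5 passed (3 higher, 2 lower), 4 of them among the 17. With such libraries as a random term 16 passed, all of them among the 17. The cause of these shifts was not tested. Above the filter, 92.8% of genes had a 95% interval reaching less than 0.5 to either side on the log2 scale.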

Other observations

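In 9 further genes the libraries separated by genotype, 8 Cort-/- against 6 Cort+/+, without passing the adjusted threshold. Among them Trak2, an adaptor of mitochondrial transport, had a log2 difference of -0.18 (limma adjusted p = 0.145), and Tgfbr3, a co-receptor of TGF-beta, had 0.19 (limma adjusted p = 0.775).

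Akap17a lies at the end of chromosome X, and further genes of the same region were looked at after their values were seen. Of these, Asmt did not exceed 0.0641 RPKM in any library and was below the filter. Nlgn4l, a synaptic adhesion protein, had a log2 difference of 0.26 (95% interval 0.14 to 0.37, limma adjusted p = 0.214), and Sts, the steroid sulfatase, had 0.32 (0.17 to 0.47, limma adjusted p = 0.276). Near Cort, Zfp933 at 1.28 Mb had -0.47 (limma adjusted p = 0.305), and Mfn2, a mitochondrial fusion protein at 1.22 Mb, had -0.13 (limma adjusted p = 0.775).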
